A study of Arabidopsis thaliana with 8 samples.

Results

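The subject here is the set of genes whose levels separated the libraries labelled AtRH17 OX and HRE1β OX from the libraries labelled HRE1α OX and WT in Arabidopsis thaliana seedlings. Members were chosen by the counts themselves: in library-size-scaled counts (CPM, each count scaled by the library's total gene count), all 4 libraries of AtRH17 OX and HRE1β OX had to lie above, or all 4 below, the 4 libraries of HRE1α OX and WT. Of 28216 genes with at least 1 count, 2643 lay above (9.37%) and 2787 lay below (9.88%), 5430 genes in all. They are called the higher set and the lower set. Since the separation of the 4 libraries from the other 4 selected these genes, differences across that divide are given as a description and carry no test.

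The series holds 8 libraries of 3′ mRNA sequencing, 2 for each group, made from untreated whole seedlings of the Col-0 ecotype grown at 22 °C in short days (8 h light, then 16 h dark) and labelled 14 days after germination, while the article gives a younger age. AtRH17 OX plants were made to overexpress the RNA helicase gene AtRH17. HRE1β OX and HRE1α OX plants were made to overexpress one or the other splicing variant of HRE1 (AtERF73), a group VII ethylene response factor, and WT was the untransformed ecotype. Homozygous, kanamycin-selected later generations were used for the HRE1 lines, the HRE1α OX line came from earlier work, and the promoter that drives the transgenes in these seedlings and the number of lines sequenced were not given in the sources used here. Library totals lay between 25657217 and 30606058 counts, so that 3 counts, taken as the floor, equal 0.098 to 0.117 CPM, and 10.05 to 11.2% of counts fell on organelle genes. Whether the 2 libraries of a group came from separate cultures is not stated, so the p-values below measure only the spread between these libraries.

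The overexpressed genes were checked first. HRE1 (AT1G72360, listed as ERF73, chromosome 1) had 41.9 and 34.2 CPM in the libraries labelled AtRH17 OX and 35.0 and 34.5 CPM in those labelled HRE1β OX, against 170 and 196 CPM in HRE1α OX and 50.03 and 38.7 CPM in WT. AT2G40700 on chromosome 2, taken here as the AtRH17 locus although the files do not pair that name with a locus, had 4.89 and 4.83 CPM in the libraries labelled AtRH17 OX and 9.48 and 9.38 CPM in those labelled HRE1β OX, against 9.78 and 9.04 CPM in HRE1α OX and 9.25 and 8.40 CPM in WT. HRE1 was thus high only in the HRE1α OX libraries, and AT2G40700 was lower in AtRH17 OX than in HRE1β OX (log2 fold change −0.87 ± 0.18 SE, adjusted p = 0.00143, edgeR quasi-likelihood test). The position of the 3′ tags relative to the transgenes is not given in the sources used here, so tags may miss a transgene with another 3′ end, which was not tested. The libraries labelled AtRH17 OX and HRE1β OX thus showed no rise of their own labelled gene in these tags, and the names AtRH17 OX and HRE1β OX stand for labels throughout.

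Several of the pathways represented in the 2 sets work through known regulatory sequences. Glutathione S-transferases (GSTs), UDP-glycosyltransferases and 12-oxophytodienoate reductases are induced by reactive electrophiles and xenobiotics through TGA transcription factors, which bind the TGACGT core. Cytosolic ribosomal protein genes of plants often carry site II elements (TGGGCC) and telo boxes (AAACCCTA). The copper superoxide dismutases CSD1 and CSD2 and their chaperone CCS are targets of the microRNA miR398, which plants make when copper is scarce, when the iron enzyme FSD1 takes the place of the copper enzymes.

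Promoter windows of 4 members of the higher set are shown, a pair from the detoxification genes and a pair from the ribosomal protein genes, since both groups were frequent in the higher set. Only windows that hold the marked letters, both kinds in the second pair, and overlap no other gene were considered. They are therefore not typical of their groups. All are the 250 bases upstream of the annotated start in the RefSeq annotation of TAIR10.1, 5′ to 3′ on the gene's strand. Capitals mark TGACGT in the first pair and TGGGCC or AAACCCTA in the second pair, on either strand. GSTU1 is a GST at chr2:12632539-12632788 (minus strand), NAC032 a NAC factor at chr1:29099589-29099838 (plus strand), and AT3G11120 (chr3:3480770-3481019, plus strand) and AT1G18540 (chr1:6378581-6378830, minus strand) encode ribosomal proteins.
GSTU1: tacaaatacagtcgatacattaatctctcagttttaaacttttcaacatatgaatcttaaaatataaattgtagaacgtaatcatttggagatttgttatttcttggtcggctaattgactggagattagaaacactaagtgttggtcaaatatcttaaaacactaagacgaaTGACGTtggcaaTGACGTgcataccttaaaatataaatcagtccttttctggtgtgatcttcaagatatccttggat
NAC032: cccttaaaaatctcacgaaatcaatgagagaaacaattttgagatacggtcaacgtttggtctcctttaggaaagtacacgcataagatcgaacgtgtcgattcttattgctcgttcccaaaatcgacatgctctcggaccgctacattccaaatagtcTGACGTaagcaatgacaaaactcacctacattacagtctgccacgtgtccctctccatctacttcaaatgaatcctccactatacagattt
AT3G11120: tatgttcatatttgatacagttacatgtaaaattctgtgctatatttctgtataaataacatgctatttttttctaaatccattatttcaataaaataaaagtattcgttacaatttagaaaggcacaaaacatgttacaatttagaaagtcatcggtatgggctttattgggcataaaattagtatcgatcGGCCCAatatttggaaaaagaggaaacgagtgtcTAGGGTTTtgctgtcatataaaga
AT1G18540: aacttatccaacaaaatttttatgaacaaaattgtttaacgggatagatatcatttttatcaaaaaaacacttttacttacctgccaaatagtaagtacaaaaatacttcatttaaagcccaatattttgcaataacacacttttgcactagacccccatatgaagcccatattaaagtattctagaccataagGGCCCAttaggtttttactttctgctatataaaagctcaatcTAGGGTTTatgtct

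GSTU1 had 12.2 and 14.6 CPM in AtRH17 OX and 13.1 and 13.8 CPM in HRE1β OX, against 6.51 and 6.86 CPM in HRE1α OX and 4.82 and 4.27 CPM in WT. NAC032 had 16.5 and 17.5 CPM in AtRH17 OX and 16.0 and 15.8 CPM in HRE1β OX, against 8.20 and 8.89 CPM in HRE1α OX and 6.68 and 5.97 CPM in WT. AT3G11120 had 558 and 537 CPM in AtRH17 OX and 455 and 455 CPM in HRE1β OX, against 351 and 340 CPM in HRE1α OX and 357 and 318 CPM in WT. As the choice of members requires, none of these genes overlapped between the sides. The difference was smaller for AT3G11120 than for GSTU1 and NAC032.

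Across windows of 250 bases upstream and 50 downstream of the start, searched on both strands, TGACGT was in 11.1% of the higher set, 9.81% of the lower set and 9.40% of all 24318 promoters searched. Among the 20 GST genes of the higher set the share was 40%, and 25% in the upstream part alone. The W box TTGACC, a core that WRKY factors bind, was in 30% of these GST genes in either window, against 14.2% of all promoters. It was in 55.6% of the 9 higher detoxification markers, where TGACGT was in 44.4%. Another form of the W box, TTGACT, was in 35% of these GST genes but 11.1% of the markers, against 22% of all promoters. The site II core TGGGCC was in 21.5% of the higher set, 17.2% of the lower set and 16.4% of all promoters, and AAACCCTA in 7.69%, 3.88% and 5.73%. Of the 151 ribosomal protein promoters in the higher set, 60.3% held TGGGCC and 41.7% held AAACCCTA, against 51% and 16.6% in the upstream part alone. The GCC box core GCCGCC, the sequence that ethylene response factors bind, was in 2.49% of the higher set, 3.19% of the lower set and 2.60% of all promoters. A match of letters is a description and not a binding site.

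As a description of size, the median difference between the sides over tested genes was 0.60 on the log2 scale in the higher set and −0.44 in the lower set, against −0.0047 over all 22602 genes that passed the filter on low counts. Of the higher set 2557 genes passed that filter and 86 did not, and of the lower set 2752 passed and 35 did not. A difference of more than 2-fold was seen for 620 higher genes (24.2%) and 217 lower genes (7.89%). The gap that remained between the nearest libraries of the sides was small for most: its median was 0.18 (log2) in the higher set and 0.14 in the lower set, and it exceeded 2-fold for 116 higher and 31 lower genes. At the edge of the rule, AT3G09800 (5.57 and 6.43 CPM in AtRH17 OX, 5.46 and 5.65 CPM in HRE1β OX, against 3.31 and 5.23 CPM in HRE1α OX and 5.46 and 5.45 CPM in WT) lay just inside the higher set, and AT1G10640 (4.79 and 5.92 CPM in AtRH17 OX, 7.49 and 7.35 CPM in HRE1β OX, against 4.58 and 4.79 CPM in HRE1α OX and 3.82 and 3.26 CPM in WT) just outside. In the lower set, AT3G18800 (13.9 and 13.1 CPM in AtRH17 OX, 15.7 and 14.9 CPM in HRE1β OX, against 15.7 and 16.3 CPM in HRE1α OX and 19.998 and 23.9 CPM in WT) lay just inside, and NPL41 (22.8 and 22.4 CPM in AtRH17 OX, 28.4 and 28.4 CPM in HRE1β OX, against 29.1 and 29.2 CPM in HRE1α OX and 28.4 and 30.9 CPM in WT) just outside. The split between the sets depended on the scaling: with upper-quartile factors 3302 genes were higher and 2200 lower, 60% higher against 48.7% with library totals.

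**Figure D1:**
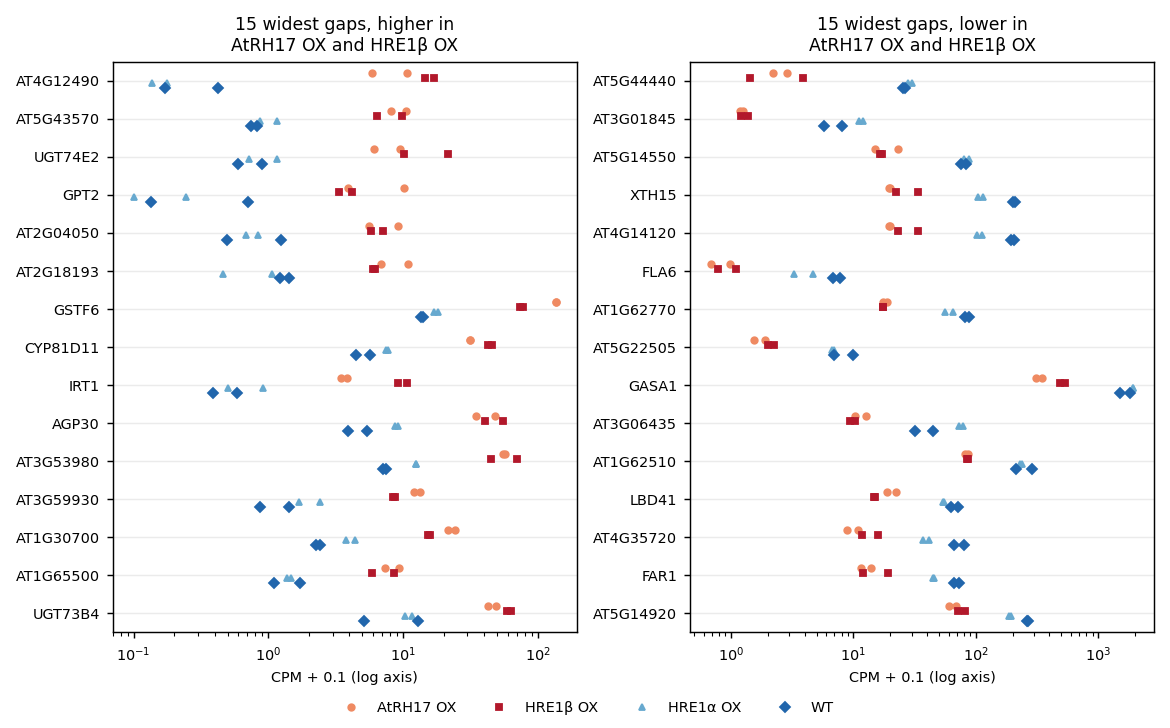
Values of the 15 members with the widest gap in each set, each row a gene and each point 1 library, with CPM + 0.1 on a log axis. In every row the 4 AtRH17 OX and HRE1β OX libraries lie apart from the 4 HRE1α OX and WT libraries, as the choice of members requires, and the widest gap is that of AT4G12490.

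The widest gap belonged to AT4G12490, one of a cluster of lipid-transfer protein genes on chromosome 4, which had 10.6 and 5.77 CPM in AtRH17 OX and 16.9 and 14.4 CPM in HRE1β OX, against 0.077 and 0.0363 CPM in HRE1α OX and 0.321 and 0.0695 CPM in WT. Its neighbours AT4G12500, AT4G12510 and EARLI1 were also in the higher set, while AZI1, a gene of systemic immunity, was in the lower set with 236 and 212 CPM in AtRH17 OX and 238 and 156 CPM in HRE1β OX, against 314 and 275 CPM in HRE1α OX and 504 and 437 CPM in WT. AT4G12520 lay in neither. Multiple alignments were counted, and how far reads were shared within the cluster was not tested. GPT2, a plastid glucose 6-phosphate translocator, had 10.09 and 3.78 CPM in AtRH17 OX and 4.09 and 3.27 CPM in HRE1β OX, against 0 and 0.145 CPM in HRE1α OX and 0.607 and 0.0347 CPM in WT. AGP30, an arabinogalactan protein of the root, had 48.0 and 34.5 CPM in AtRH17 OX and 54.8 and 40.5 CPM in HRE1β OX, against 9.01 and 8.68 CPM in HRE1α OX and 5.29 and 3.82 CPM in WT. At the other end, GASA1, a gibberellin-regulated peptide, had 346 and 308 CPM in AtRH17 OX and 491 and 533 CPM in HRE1β OX, against 1912 and 1935 CPM in HRE1α OX and 1521 and 1825 CPM in WT. XTH15, a xyloglucan hydrolase of the cell wall, had 19.3 and 19.9 CPM in AtRH17 OX and 33.5 and 22.3 CPM in HRE1β OX, against 104 and 115 CPM in HRE1α OX and 210 and 200 CPM in WT, and it overlaps AT4G14120, whose counts were alike.

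Detoxification genes made up a recurrent part of the higher set. Of 49 GST genes with a count, 20 were in the higher set and 3 in the lower set, with a median difference between the sides of 0.51 (log2) over the family. GSTF6 had 137 and 136 CPM in AtRH17 OX and 74.1 and 77.2 CPM in HRE1β OX, against 18.1 and 16.9 CPM in HRE1α OX and 14.0 and 13.6 CPM in WT. GSTU24, a tau-class enzyme, had 66.98 and 62.05 CPM in AtRH17 OX and 50.1 and 57.05 CPM in HRE1β OX, against 13.6 and 15.2 CPM in HRE1α OX and 13.6 and 10.5 CPM in WT. Of 10 detoxification markers, 9 were in the higher set (median difference 1.35) and none in the lower set. They included OPR1, a 12-oxophytodienoate reductase, with 50.02 and 56.2 CPM in AtRH17 OX and 47.8 and 58.9 CPM in HRE1β OX, against 16.5 and 17.6 CPM in HRE1α OX and 21.5 and 17.4 CPM in WT. The cytochrome P450 CYP81D11 had 31.5 and 31.1 CPM in AtRH17 OX and 45.8 and 43.0 CPM in HRE1β OX, against 7.31 and 7.70 CPM in HRE1α OX and 5.61 and 4.38 CPM in WT. Among 62 UDP-glycosyltransferases, which attach sugars to small molecules, 13 were higher and 5 lower, and UGT74E2, which glucosylates an auxin, had 9.35 and 6.002 CPM in AtRH17 OX and 10.01 and 21.5 CPM in HRE1β OX, against 0.616 and 1.05 CPM in HRE1α OX and 0.4999 and 0.799 CPM in WT. Of 217 P450 genes 27 were higher and 18 lower, and of 122 ABC transporters 14 were higher and 9 lower, shares nearer to those of all genes. Under 5 other scalings 18 to 22 GST genes and 8 to 9 detoxification markers were higher. With both AtRH17 OX libraries left out 21 GST genes and 10 markers were higher, and with both HRE1β OX libraries left out 31 and 9, in alternatives added after the data were seen.

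**Figure D2:**
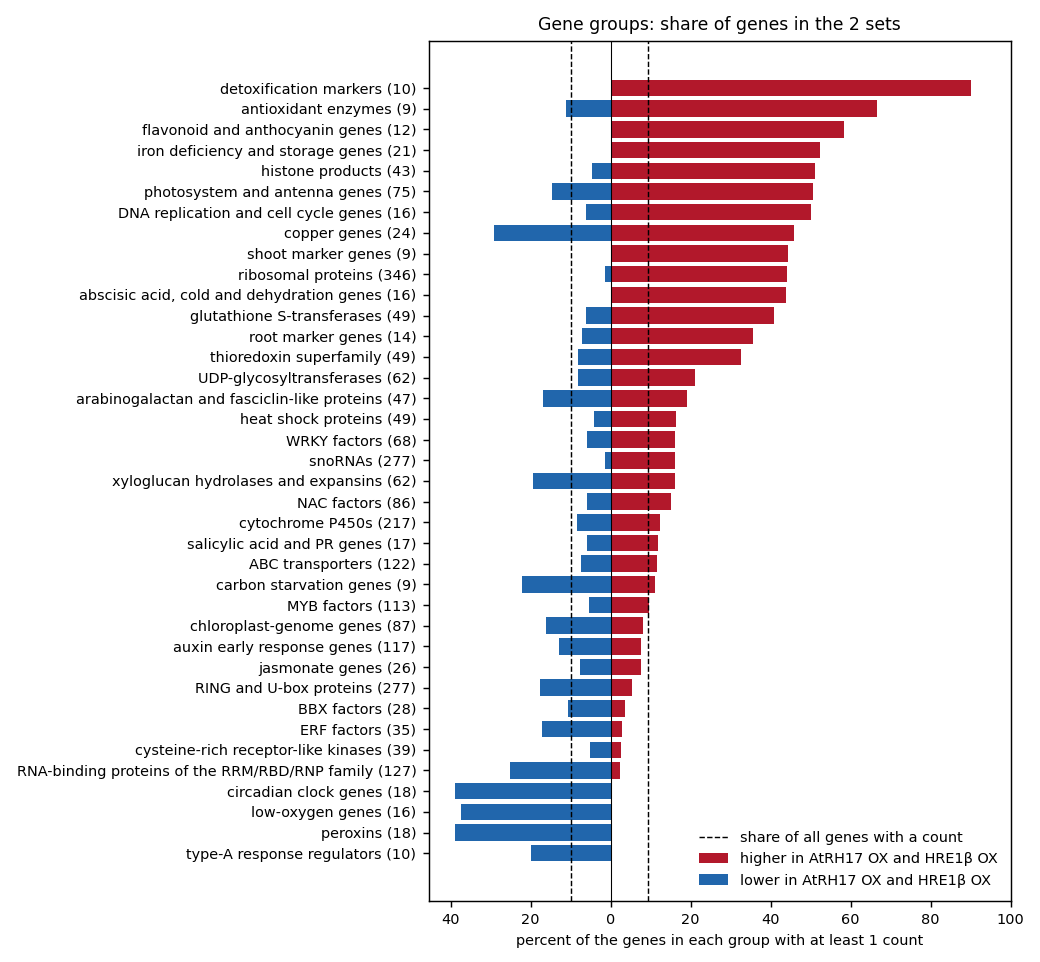
Share of each gene group in the higher set (bars to the right) and in the lower set (bars to the left), in percent of the group's genes with at least 1 count, whose number stands in parentheses, with dashed lines at the shares over all genes. Detoxification markers reach furthest to the right, and circadian clock genes, peroxins, low-oxygen genes and type-A response regulators have bars to the left only.

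Copper-related genes were found in both sets. From a list of 24 such genes put together after the values were seen, 11 were higher and 7 lower. CSD2, the plastid copper/zinc superoxide dismutase, had 266 and 288 CPM in AtRH17 OX and 327 and 301 CPM in HRE1β OX, against 92.3 and 86.1 CPM in HRE1α OX and 57.1 and 85.8 CPM in WT. CCS, which delivers copper to both enzymes, had 116 and 110 CPM in AtRH17 OX and 125 and 114 CPM in HRE1β OX, against 51.6 and 57.8 CPM in HRE1α OX and 35.0 and 58.5 CPM in WT. CSD1, the cytosolic enzyme, had 313 and 329 CPM in AtRH17 OX and 338 and 333 CPM in HRE1β OX, against 128 and 128 CPM in HRE1α OX and 84.8 and 134 CPM in WT, and it overlaps AT1G08840, whose counts were alike. In all of CSD2, CSD1 and CCS the 2 sides lay well apart, with differences of 1.91, 1.50 and 1.23 on the log2 scale. FSD1, the iron superoxide dismutase, was in the lower set, with 842 and 869 CPM in AtRH17 OX and 420 and 447 CPM in HRE1β OX, against 1412 and 1406 CPM in HRE1α OX and 1760 and 1360 CPM in WT. The copper importers COPT1, COPT2 and COPT6 were in the lower set, with a difference of −0.46, −0.59 and −0.23 on the log2 scale, as were the copper chaperone CCH (−0.47), the metal reductase FRO4 (−0.78) and the metal transporter YSL2 (−0.61). The laccases LAC3, LAC7 and LAC13, copper-containing oxidases, were in the higher set, by 0.99, 1.30 and 1.12. LAC13 had only 14 to 49 counts per library. The laccases LAC2, LAC12, LAC17 and IRX12 of the same list were in neither set. SPL7, the transcription factor of copper deficiency, was higher by 0.42 but lay near the edge of the rule. It had 15.4 and 14.4 CPM in AtRH17 OX and 18.1 and 18.8 CPM in HRE1β OX, against 12.4 and 10.8 CPM in HRE1α OX and 14.2 and 13.4 CPM in WT.

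The mature miR398 sequences and the stretches of CSD1, CCS and AT3G15640 that pair with them without gaps are shown because CSD1 and CCS are known targets and all 3 genes were higher. The mature forms were read from RefSeq's TAIR10.1 annotation and genome, miR398a-3p at chr2:1041012-1041032, and miR398b-3p and miR398c-3p, which are identical, at chr5:4691107-4691127 and chr5:4694778-4694798, all on the plus strand. Capitals mark the seed (bases 2 to 8) in the microRNAs and the bases opposite it in the genes.
miR398a-3p: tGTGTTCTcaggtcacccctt
miR398b-3p and miR398c-3p: tGTGTTCTcaggtcacccctg
CSD1: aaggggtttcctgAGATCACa
CCS: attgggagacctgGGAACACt
AT3G15640: aaggtgtgacctgAGAATCAc

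The CSD1 stretch spans a splice junction outside the coding sequence (chromosome 1, plus strand), the CCS stretch is in coding sequence (chr1:4267521-4267541, minus strand), and that of AT3G15640, a rubredoxin-like protein, is outside it (chr3:5299204-5299224, plus strand). Counting a mismatch as 1 and a G:U pair as 0.5, they scored 3.0, 4.5 and 4.5 against miR398a-3p, and no ungapped stretch of CSD2 scored 5 or less. AT3G15640 had 42.5 and 34.3 CPM in AtRH17 OX and 43.3 and 42.9 CPM in HRE1β OX, against 29.6 and 25.9 CPM in HRE1α OX and 20.8 and 27.2 CPM in WT. Of 164 genes with a stretch that scored 5 or less against miR398a-3p, 13 were in the higher set (7.93%), and of 106 for miR398b-3p, 11 were (10.4%), shares close to that of all genes.

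MIR398b itself had 0 and 5 counts in AtRH17 OX and 3 and 11 counts in HRE1β OX, against 8 and 26 counts in HRE1α OX and 8 and 12 counts in WT, and the sides overlapped. The protein-coding gene AT5G14550 (chr5:4691006-4694055, minus strand) spans MIR398b on the opposite strand and its 3′ end lies 16 bases from that precursor, and it had 23.1 and 14.8 CPM in AtRH17 OX and 16.97 and 16.4 CPM in HRE1β OX, against 79.4 and 87.5 CPM in HRE1α OX and 82.5 and 75.9 CPM in WT. Likewise AT2G47020 (chr2:19319685-19322507, minus strand), which spans MIR408, another microRNA of copper deficiency, had 8.67 and 7.76 CPM in AtRH17 OX and 7.60 and 7.35 CPM in HRE1β OX, against 13.4 and 13.1 CPM in HRE1α OX and 17.4 and 15.9 CPM in WT. The use of strand in the counting is not stated, so reads of these genes and reads of the microRNA transcripts cannot be told apart.

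**Figure D3:**
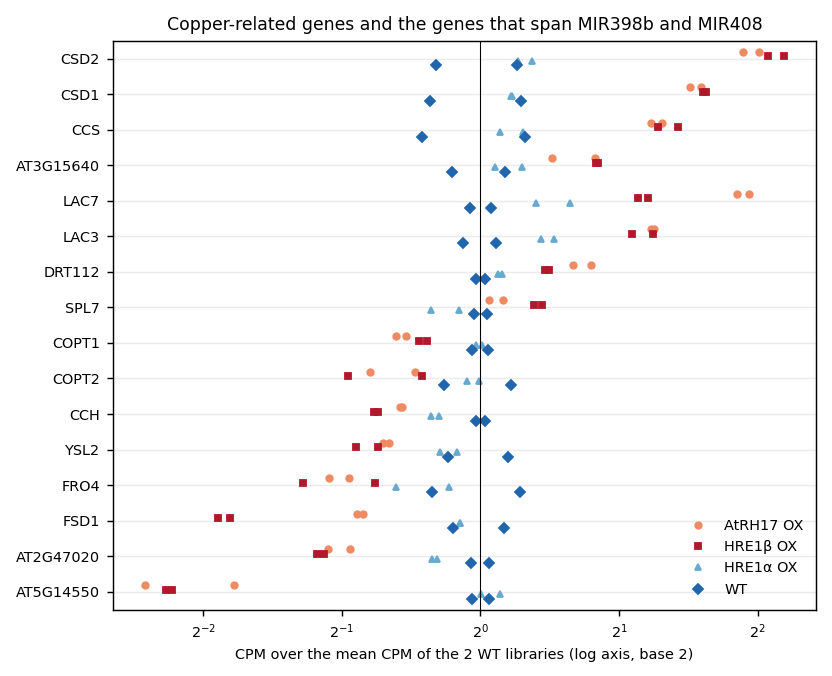
Copper-related members and the 2 genes that span MIR398b and MIR408, each point 1 library's CPM divided by the mean CPM of the 2 WT libraries, on a log axis of base 2. CSD2, CSD1 and CCS lie to the right and FSD1 and AT5G14550 to the left in the AtRH17 OX and HRE1β OX libraries, while the HRE1α OX libraries lie nearer to WT.

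Of 21 iron deficiency and storage genes, a list that holds importers, regulators, ferritins and nicotianamine synthases, 11 were in the higher set and none in the lower set, with a median difference of 0.995 on the log2 scale (11 to 12 genes under 5 other scalings). IRT1, the main iron importer of root cells, had 3.74 and 3.35 CPM in AtRH17 OX and 10.6 and 9.12 CPM in HRE1β OX, against 0.808 and 0.399 CPM in HRE1α OX and 0.286 and 0.486 CPM in WT. AT2G30766, annotated as an uncharacterized protein, had 11.7 and 10.4 CPM in AtRH17 OX and 49.1 and 45.5 CPM in HRE1β OX, against 6.27 and 4.32 CPM in HRE1α OX and 2.25 and 2.54 CPM in WT. NAS4, a nicotianamine synthase, had 11.6 and 11.3 CPM in AtRH17 OX and 13.0 and 14.3 CPM in HRE1β OX, against 6.01 and 5.37 CPM in HRE1α OX and 4.71 and 4.93 CPM in WT. FRU, the transcription factor that drives IRT1, was also higher, by 1.55. IRT1 and AT2G30766 were higher in both HRE1β OX libraries than in both AtRH17 OX libraries.

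Of 12 flavonoid and anthocyanin genes, 7 were in the higher set and none in the lower, with a median difference of 1.11. TT4, the chalcone synthase that opens the pathway, had 125 and 123 CPM in AtRH17 OX and 67.1 and 74.2 CPM in HRE1β OX, against 20.2 and 18.4 CPM in HRE1α OX and 26.6 and 15.4 CPM in WT. FLS1, the flavonol synthase, had 35.3 and 29.6 CPM in AtRH17 OX and 17.004 and 19.05 CPM in HRE1β OX, against 6.27 and 4.86 CPM in HRE1α OX and 9.89 and 6.32 CPM in WT.

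Of 346 ribosomal protein genes, 153 were in the higher set (44.2%) and 5 in the lower set, by a list drawn up from product names after the values were seen. Under 5 other scalings 143 to 175 were higher and 2 to 5 lower. Of all genes with a mean above 100 CPM, 26.9% were in the higher set. Their differences were small, with a median of 0.25 on the log2 scale over all tested ribosomal protein genes. AT1G18540, whose promoter is shown above, had 266 and 262 CPM in AtRH17 OX and 262 and 245 CPM in HRE1β OX, against 184 and 188 CPM in HRE1α OX and 201 and 182 CPM in WT. In sum, ribosomal protein genes took 78085 and 75057 CPM in AtRH17 OX and 72164 and 69519 CPM in HRE1β OX, against 63373 and 62027 CPM in HRE1α OX and 63879 and 61659 CPM in WT. Of 43 genes with histone product names, 22 were higher and 2 lower, which were HTA9, a histone H2A, and AT3G07565, annotated as a histone H2A deubiquitinase and so not a histone itself. Among the higher, HTA6, another histone H2A, had 104 and 105 CPM in AtRH17 OX and 110 and 102 CPM in HRE1β OX, against 63.2 and 59.4 CPM in HRE1α OX and 57.9 and 47.9 CPM in WT. Of 16 DNA replication and cell cycle genes, 8 were higher and 1 lower, and the replication clamp PCNA1 had 14.5 and 13.9 CPM in AtRH17 OX and 13.7 and 12.1 CPM in HRE1β OX, against 8.74 and 6.97 CPM in HRE1α OX and 6.04 and 5.94 CPM in WT. The exception was MCM3, a subunit of the replicative helicase, with 6.12 and 6.74 CPM in AtRH17 OX and 8.52 and 6.34 CPM in HRE1β OX, against 13.2 and 11.1 CPM in HRE1α OX and 9.78 and 12.6 CPM in WT. Of 277 snoRNA genes with a count, 45 were higher and 4 lower, though 30 to 47 were higher under the other scalings.

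Of 55 nuclear photosystem and antenna genes, 38 were in the higher set and 1 in the lower (median difference 0.51). By the edgeR test at an adjusted p under 0.05, 13 of the nuclear members were also higher in HRE1α OX than in WT and none lower. Of 20 chloroplast genes of the same complexes none was higher and 10 were lower (median −0.32). Over all 87 chloroplast-genome genes 7 were higher and 14 lower (median −0.02), and with both AtRH17 OX libraries left out 22 were higher and 19 lower. LHCB6, a minor antenna protein, had 1550 and 1625 CPM in AtRH17 OX and 1534 and 1481 CPM in HRE1β OX, against 946 and 929 CPM in HRE1α OX and 705 and 837 CPM in WT. The chloroplast gene psbB, of the photosystem II core, had 104 and 95.5 CPM in AtRH17 OX and 114 and 107 CPM in HRE1β OX, against 142 and 147 CPM in HRE1α OX and 161 and 152 CPM in WT. Shoot markers moved with the same divide: 4 of 9 were higher and none lower, and their summed level was 23714 to 24461 CPM in AtRH17 OX and HRE1β OX and 17341 to 21772 CPM in HRE1α OX and WT. Root markers, with 5 of 14 higher and 1 lower, summed to 3536 and 4158 CPM in AtRH17 OX and 2304 and 2173 CPM in HRE1β OX, against 2296 and 2262 CPM in HRE1α OX and 2217 and 2031 CPM in WT. Seed storage and late embryo genes, none of 14 a member, summed to 110 and 32.3 CPM in HRE1β OX and to between 1.78 and 3.36 CPM in all other libraries. The part of organ proportions in any result here was not tested, and more cells of a type cannot be told apart from more RNA per cell.

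The lower set also held genes of the oxygen-shortage response. Of 16 low-oxygen genes 6 were lower (37.5%), none higher and 10 in neither set, with a median difference of −0.27. Of all genes with a count 9.88% were in the lower set, and 18.1% of those with a mean of 10 to 100 CPM. LBD41, an early gene of oxygen shortage, had 22.2 and 18.7 CPM in AtRH17 OX and 14.98 and 14.6 CPM in HRE1β OX, against 54.7 and 53.8 CPM in HRE1α OX and 63.1 and 71.4 CPM in WT. AT5G15120, annotated as a 2-aminoethanethiol dioxygenase, had 51.6 and 46.4 CPM in AtRH17 OX and 26.6 and 28.2 CPM in HRE1β OX, against 107 and 107 CPM in HRE1α OX and 114 and 98.8 CPM in WT. With both HRE1β OX libraries left out 7 were lower and 2 higher, and with both AtRH17 OX libraries left out 6 were lower and none higher. With both WT libraries left out 7 were lower and 4 higher, and with both HRE1α OX libraries left out 6 were lower and none higher. Summed over the list, the level was 512 and 431 CPM in AtRH17 OX and 270.2 and 232 CPM in HRE1β OX, against 387 and 382 CPM in HRE1α OX and 617 and 461 CPM in WT, so the sums overlapped between the sides. In the main count, the 6 were LBD41, AT5G15120, AT5G39890, AT3G10040, the sucrose synthase SUS4 and the ethylene receptor ETR2. Among 35 ERF factors, 6 were lower and 1 higher, and the group VII factors EBP, RAP2.2 and RAP2.12 were among those lower. EBP had 1359 and 1565 CPM in AtRH17 OX and 1282 and 1257 CPM in HRE1β OX, against 2545 and 2683 CPM in HRE1α OX and 3623 and 3458 CPM in WT.

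Circadian clock genes were lower in 7 of 18 cases and higher in none (median −0.30), with small single differences. RVE8, a morning factor, had 94.0 and 96.4 CPM in AtRH17 OX and 97.6 and 102 CPM in HRE1β OX, against 151 and 139 CPM in HRE1α OX and 124 and 140 CPM in WT. Under the other scalings 5 to 7 were lower. By lists made after the values were seen, 49 of 277 RING and U-box genes, most of them ubiquitin ligases, were lower and 15 higher, and 32 of 127 genes of RNA-binding RRM proteins were lower and 3 higher (35 to 51 and 24 to 32 lower under the other scalings). Membership depended on the level: 18.1% of genes with a mean of 10 to 100 CPM were in the lower set, close to the 17.7% of RING and U-box genes, against 0.34% of genes up to 0.1 CPM. Of 18 peroxin genes, which build peroxisomes, 7 were lower and none higher. Auxin early response genes (9 higher and 15 lower of 117, with 8 to 15 lower under the other scalings), jasmonate genes (2 and 2 of 26) and salicylic acid and PR genes (2 and 1 of 17) were members about as often as genes in general.

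Members differed in transcript length as well. The median annotated transcript had 1370 bases in the higher set and 1775 bases in the lower set, against 1602 bases over all 24407 protein-coding genes with a count. Among genes split by length into 4 equal classes, in the shortest class 12.7% were in the higher set and 6.93% in the lower set, and in the longest class 5.33% were in the higher set and 13.2% in the lower set. RNA quality was not given in the sources used here, and its part in this pattern was not tested.

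**Figure D4:**
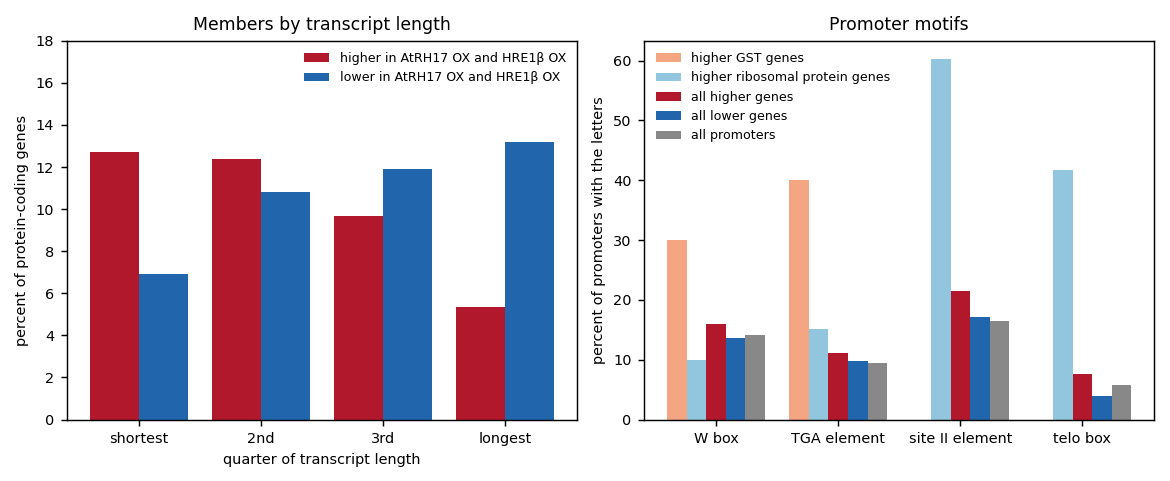
Left, percent of protein-coding genes in the higher and in the lower set in 4 equal classes of annotated transcript length; right, percent of promoters that hold each motif in the higher GST genes, the higher ribosomal protein genes, both sets and all promoters. The higher set thins and the lower set grows with length, and site II elements and telo boxes are most frequent in ribosomal protein genes.

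What the rule did not fix is how the members behaved within each side, and here tests were made with edgeR over all genes, at an adjusted p under 0.05. The rule favours genes with small differences within a side. Between AtRH17 OX and HRE1β OX, 398 of the 2557 tested higher genes were higher in AtRH17 OX (15.6%, against 7.42% of all genes tested) and 56 were lower (2.19%, against 6.45%). In the lower set, 124 of 2752 were higher in AtRH17 OX (4.51%) and 221 lower (8.03%). The AtRH17 OX and HRE1β OX libraries also chose the members, so the balance of directions is given as counts only. The 799 calls fell to 520 without AtRH17 OX replicate 1, 289 without AtRH17 OX replicate 2, 359 without HRE1β OX replicate 1 and 352 without HRE1β OX replicate 2, each of which leaves 1 library in its group, assumed to vary like the others. Leaving out WT replicate 1 or WT replicate 2 raised the number of calls in both sets and in both directions.

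Higher in AtRH17 OX than in HRE1β OX were GSTF6 (log2 fold change 0.94 ± 0.09 SE, adjusted p = 6.97e-09), the GST ERD9 (0.89 ± 0.11, adjusted p = 1.46e-06) and FLS1 (0.93 ± 0.16, adjusted p = 0.000387). IGMT3, an indole glucosinolate methyltransferase, was higher by 2.07 ± 0.16 (adjusted p = 1.25e-10), with 30.6 and 28.8 CPM in AtRH17 OX and 6.38 and 8.59 CPM in HRE1β OX. Of the ribosomal protein genes in the 2 sets, 55 were higher in AtRH17 OX and none lower. The 55 include AT1G07830 of the lower set. Lower in AtRH17 OX were the iron genes AT2G30766 (−2.01 ± 0.15, adjusted p = 2.27e-11), IRT1 (−1.39 ± 0.27, adjusted p = 0.000598) and AT1G47395 (−0.87 ± 0.13, adjusted p = 4.04e-05). AT3G28510, a nucleoside triphosphate hydrolase gene, was lower (−3.33 ± 0.38, adjusted p = 2.74e-07), with 0.680 and 0.858 CPM in AtRH17 OX and 9.74 and 6.70 CPM in HRE1β OX.

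In the lower set, genes that were less reduced in AtRH17 OX included FSD1 (1.07 ± 0.09, adjusted p = 2.21e-08), AT5G15120 (0.93 ± 0.10, adjusted p = 6.16e-08), AT5G39890 (0.75 ± 0.14, adjusted p = 0.000447) and LBD41 (0.55 ± 0.11, adjusted p = 0.00112). Those lower still in AtRH17 OX included AT3G05727, annotated as a pollen coat protein family member (−1.58 ± 0.08, adjusted p = 1.59e-14), with 50.1 and 54.8 CPM in AtRH17 OX and 162 and 170 CPM in HRE1β OX. GASA1 (−0.56 ± 0.09, adjusted p = 3.66e-05) and the senescence factor NAC6 (−0.54 ± 0.10, adjusted p = 0.00044) were also lower. For AtRH17 OX against HRE1β OX, single genes given with an adjusted p kept their call and direction under every alternative that could be fitted. Those alternatives included leaving out each library in turn. AT1G07830, named above without an adjusted p, lost its call in some, among them limma on quantile-normalized values.

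Between HRE1α OX and WT, 85 of the tested higher genes were higher in HRE1α OX (3.32%, against 1.57% of all genes tested) and 2 were lower, and in the lower set 7 were higher and 175 lower (6.36%, against 1.8% of all genes tested). These comparisons use the same libraries as the rule, so the direction of the calls is given as counts and read no further. Without WT replicate 2, 149 were higher and 34 lower in the higher set, and 18 were higher and 177 lower in the lower set. The 269 calls fell to 105 without HRE1α OX replicate 1 and 100 without HRE1α OX replicate 2. TIP2;3, a tonoplast channel for water and ammonia, was higher in HRE1α OX by 1.40 ± 0.10 (adjusted p = 2.79e-10), with 63.3 and 56.2 CPM against 25.1 and 20.2 CPM in WT, while AtRH17 OX had 249.2 and 220 CPM and HRE1β OX 203 and 185 CPM. BBX16, a B-box factor, was higher by 1.70 ± 0.12 (adjusted p = 1.37e-10), with 51.1 and 49.0 CPM in HRE1α OX and 13.5 and 17.4 CPM in WT, against 83.6 and 93.9 CPM in AtRH17 OX and 53.0 and 62.4 CPM in HRE1β OX. The antenna gene LHCB3 was higher by 0.63 ± 0.08 (adjusted p = 2.74e-06). Lower in HRE1α OX were XTH15 (−0.90 ± 0.12, adjusted p = 0.000142), EXO, a growth-related wall protein (−1.02 ± 0.09, adjusted p = 1.5e-08), and ARL, a regulator of organ growth (−0.86 ± 0.09, adjusted p = 1.52e-07). These calls held under every alternative that could be fitted. In these genes the HRE1α OX libraries lay between WT and the other lines. That order follows from the rule together with the direction of these calls. By group means HRE1α OX lay between in 1568 of the 2643 higher genes and 1965 of the 2787 lower genes. The edgeR fold change put HRE1α OX above WT in 60.5% of tested higher genes and 30.4% of tested lower genes. Over all genes tested the share was 47.4%. The HRE1α OX and WT libraries also chose the members, so these shares are read no further. In other members, such as GASA1, the WT libraries lay between.

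**Figure D5:**
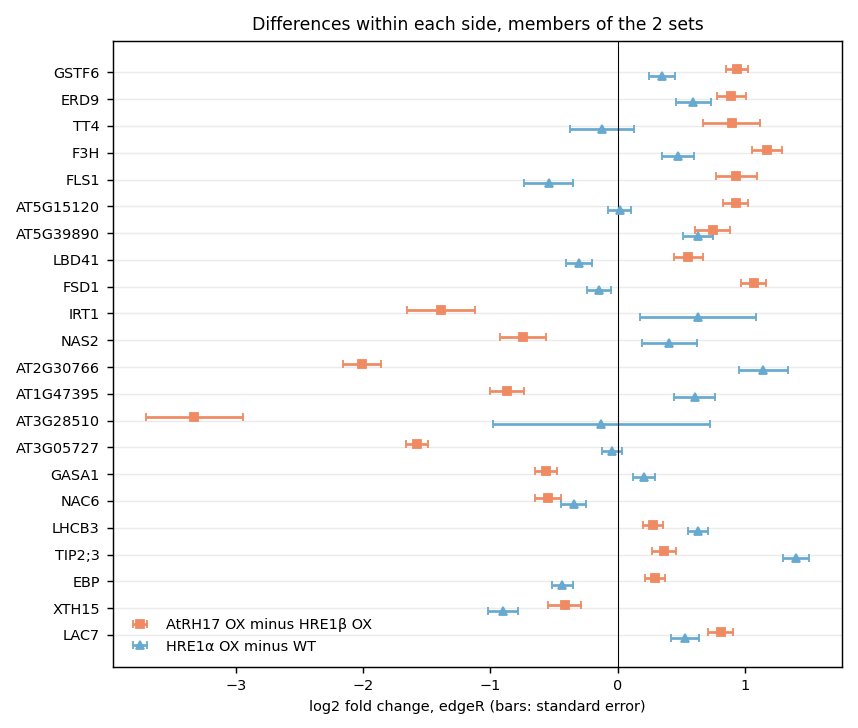
Log2 fold changes with standard errors from edgeR for AtRH17 OX against HRE1β OX and for HRE1α OX against WT in selected members. GSTF6, the flavonoid genes and FSD1 lie to the right and the iron genes to the left in AtRH17 OX against HRE1β OX, while TIP2;3, LHCB3 and XTH15 differ between HRE1α OX and WT.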

How the data were processed

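The deposited tables hold counts of 3′ mRNA sequencing (QuantSeq) reads per gene name, 1 table per library. Per the labels and the methods of the article, the authors aligned reads to TAIR10 with Bowtie2 and counted unique and multiple alignments by coverage, and edgeR is among the submitters' tools. Strand in the counting and the versions are not given in the sources used here. Of 33028 gene names, 32576 matched 1 locus of the RefSeq annotation of TAIR10.1.

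CPM values used library totals. Low counts were removed with filterByExpr, and the 4 groups were fitted together with TMM factors (0.958 to 1.03) and the quasi-likelihood test of edgeR 4.0.16 in R 4.3.3, with Benjamini-Hochberg adjustment over 22602 genes. DESeq2 1.42.0 and limma 3.58.1 were alternatives. Tables were handled with Python 3.11.15 and pandas 2.3.3. The tests were checked on simulated counts, with the same spread set for every gene rather than the spread of these libraries. There edgeR recovered 143 of 200 genes changed 2-fold between AtRH17 OX and HRE1β OX and 146 of 200 between HRE1α OX and WT. Of 200 genes changed 1.5-fold it recovered 10 and 4.

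Genes named were, among members with a mean of at least 5 CPM on their higher side, the 15 with the widest gap per set, up to 4 per gene list and set, the 5 per set and direction with the smallest adjusted p in each test, and those at the edge of the rule. The gap is the log2 ratio of the nearest libraries of the sides, each CPM + 0.1. Copper, ribosomal protein, histone, RING, RRM, peroxin and snoRNA genes, the genes beside AT4G12490, GSTU1, AT3G15640, AT2G47020, FRU and any other gene outside that rule were chosen after their values were seen. The members and lists were chosen with earlier results of these data known.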

Additional observations from a re-analysis of the deposited data

Results flagged for a closer look

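The effect of 1 label differed from that of the other for part of the members, by the edgeR test of AtRH17 OX against HRE1β OX itself. In the higher set 398 genes were higher and 56 were lower in AtRH17 OX than in HRE1β OX. In the lower set 124 genes were higher and 221 were lower in AtRH17 OX. Of the 11 iron genes of the higher set, 4 were lower in AtRH17 OX and none higher, and over the whole iron list 7 were lower and 3 higher. Of the ribosomal protein genes in the 2 sets, 55 were higher in AtRH17 OX and none lower. Over the whole tested higher set, 15.6% were higher and 2.19% lower in AtRH17 OX. These are counts only, since the same libraries chose the members. The labels give no batch or date, so a batch cannot be told apart from the label.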

How the results depend on the processing

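With a gap of at least 1.2 times, 992 genes were higher and 701 lower. Leaving out 1 library gave 2997 to 3323 higher genes and 3075 to 3707 lower genes, which cannot be fewer than with all 8. In alternatives added after seeing the data, the higher set grew to 4703 genes without both HRE1β OX libraries, 5141 without both AtRH17 OX, 4205 without both HRE1α OX and 4140 without both WT libraries, and the lower set to 6417, 4134, 5002 and 4549. Fewer libraries have to separate there. The other scalings and filters gave 2337 to 3302 higher and 2200 to 2842 lower genes.

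The 799 members that differed between AtRH17 OX and HRE1β OX became 289 to 1088 when 1 library was left out, and the 269 that differed between HRE1α OX and WT became 100 to 378. Across all tested genes the deviations of same-numbered libraries correlated at −0.006 to 0.056, so no general pairing by replicate number was seen. A pairing confined to some genes was not tested. With the replicate block 847 and 289 members were called. The other fits gave 727 to 945 and 201 to 353. In the upstream part of the windows alone, TGACGT was in 9.53%, TGGGCC in 19.3% and AAACCCTA in 4.17% of the higher set. No named gene changed direction. Depth limits genes near the floor, such as AT4G12490 in HRE1α OX and WT. Few changes of 1.5-fold were recovered in the simulated counts, whose spread was set and not taken from these libraries. Some smaller changes were called in the data, such as LBD41 between AtRH17 OX and HRE1β OX (log2 fold change 0.55).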
